A study of Leucocroton havanensis with 4 samples.

Results

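The contigs described here, sequences of a numbered transcript set of the Cuban nickel hyperaccumulator Leucocroton havanensis (Euphorbiaceae), moved in opposite directions with nickel in root and shoot. They were chosen from read counts scaled to 1000000 reads per library (CPM), with 0.1 CPM added before every ratio. A contig was taken when its mean CPM over the 4 libraries was 2 or more and its nickel ratio was 2 or more in one organ and 1/2 or less in the other. The shoot ratio also had to lie above 1/32, which left out 6 contigs. Of 65936 contigs, 24328 had a mean CPM of 2 or more and 242 of these met the rule. In 138 of them the root level was higher and the shoot level lower with nickel, and these are called root-up/shoot-down contigs below. The other 104 had a lower root level and a higher shoot level with nickel and are called root-down/shoot-up contigs. The names give the direction of a ratio between single libraries and not the result of a test.

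Plantlets were grown in vitro for 6 weeks after germination on Murashige and Skoog agar, and RNA sequencing of polyA RNA was done on 1 library each of root with nickel, root without nickel, shoot with nickel and shoot without nickel. The growth protocol, worded alike for all samples, gives 500 mg/L NiSO4, which is read here as the dose of the nickel samples. No genotype and no number of plantlets per library is given in the sources used here. The shoot library with nickel is labelled as a re-analysis of an earlier sample, so in shoot the effect of nickel and that of library origin cannot be told apart. The libraries held 55660570 counted reads for root with nickel, 59802565 for root without nickel, 98108920 for shoot with nickel and 84917997 for shoot without nickel. With 1 library per group no difference had a replicate check, and the dependence of a nickel difference on organ had no residual degree of freedom for a test. The 95% exact intervals given below cover counting error only. The files used here do not pair contigs with gene names, so no member can be given a function, and the organ of each library could not be checked against marker genes.

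In nickel hyperaccumulating plants, metal ions enter through the root, are loaded into the xylem, and are stored largely in vacuoles of the leaf. Membrane transporters and metal-binding ligands such as organic acids, histidine and nicotianamine take part at each step, and several of these transporters belong to families that also carry iron or zinc. Root and shoot therefore have different tasks in nickel handling. A transcript whose level moves in opposite directions in the 2 organs changes its organ preference, that is, its ratio of root level to shoot level.

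The values that chose the members are given as a description. Among the 24328 contigs of mean CPM 2 or more, a nickel ratio of 2 or more was found in root for 2.22% and in shoot for 7.58%. A ratio of 1/2 or less was found in root for 2.07% and in shoot for 5.06%, or for 4.78% with the bound at 1/32. Root-up/shoot-down contigs made up 0.567% of those 24328, and root-down/shoot-up contigs made up 0.427%. Contigs that moved alike by the same 2-fold limit were 73 higher in both organs (0.300%) and 42 lower in both organs (0.173%). Of the 541 contigs higher with nickel in root, 144 were lower in shoot before the bound on the shoot ratio, which is 26.6% of the root list and 11.7% of the 1232 contigs lower in shoot. Of the 503 contigs lower with nickel in root, 104 were higher in shoot, which is 20.7% of the root list and 5.64% of the 1844 contigs higher in shoot. Alike movement made up 13.5% of the 541 (higher in shoot) and 8.35% of the 503 (lower in shoot). These shares too lay above the 7.58% and 5.06% of all 24328 contigs. The root and shoot ratios share no library. In bulk tissue, fewer cells of a type and less RNA per cell cannot be told apart, and a CPM is a share of a library rather than an amount.

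**Figure D1:**
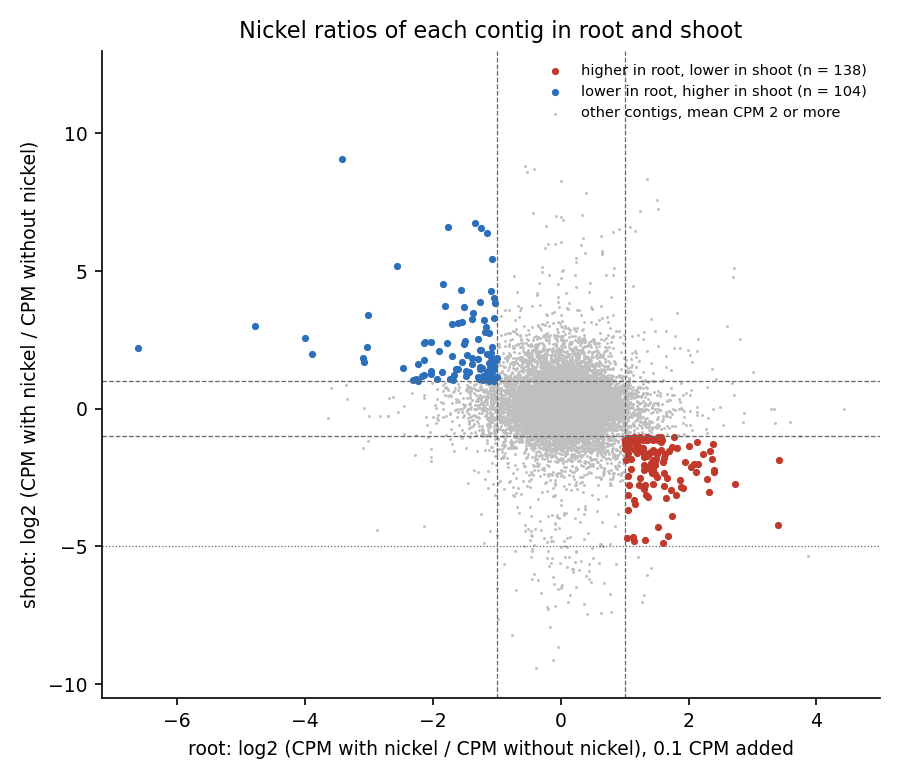
Each point is 1 contig of mean CPM 2 or more, with its log2 nickel ratio in root on the x axis and in shoot on the y axis (CPM with nickel over CPM without nickel, 0.1 CPM added). Dashed lines mark the 2-fold limits and the dotted line the bound at 1/32. The 138 red root-up/shoot-down contigs lie at lower right and the 104 blue root-down/shoot-up contigs at upper left. The rule sets these positions, and other contigs lie just outside the limits. The median log2 ratio of all 24328 contigs was 0.02 in root and 0.12 in shoot.

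The members were mostly of low to moderate level. The median of the mean CPM was 6.56 for root-up/shoot-down contigs and 5.76 for root-down/shoot-up contigs, against 12.7 for all 24328 contigs. It was also low in contigs that moved alike, at 3.99 for those higher and 6.39 for those lower in both organs. Of contigs with a mean CPM from 2 to below 5, 0.861% were root-up/shoot-down and 0.731% were root-down/shoot-up. At a mean CPM of 50 or more these shares were 0.225% (9 of 4002 contigs) and 0.025% (1 contig). Reads on the 138 root-up/shoot-down contigs were 0.447% of the library in root with nickel and 0.176% in root without nickel. In shoot they were 0.0764% of the library with nickel and 0.243% without nickel. Reads on the 104 root-down/shoot-up contigs were 0.0531% in root with nickel and 0.141% in root without nickel. In shoot they were 0.199% with nickel and 0.0439% without nickel. The 4 most abundant contigs of each direction held 26.6% and 22.8% of the summed mean level of their 138 and 104 contigs.

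Among the 138 root-up/shoot-down contigs, the size of change was moderate in root and larger in shoot. The level in root with nickel ran from 0.126 to 311 CPM with a median of 14.3 CPM, and in root without nickel from 0 to 119 CPM with a median of 4.73 CPM. In shoot with nickel it ran from 0 to 210 CPM with a median of 1.22 CPM, and in shoot without nickel from 0.141 to 490 CPM with a median of 5.44 CPM. The median log2 nickel ratio was 1.34 in root and -1.64 in shoot, and the shoot ratio was the larger in size for 101 of the 138. Nickel ratios of all 24328 contigs were also spread more widely in shoot. Their log2 quartiles were -0.18 and 0.43 in shoot, against -0.19 and 0.24 in root. A larger change in shoot is thus not shown to be particular to the members. A change of 4-fold or more was reached by 17 contigs in root, by 49 in shoot and by 8 in both organs. Another 56 contigs stayed below 3-fold in both organs.

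The most extreme ratios of members were found in the 104 root-down/shoot-up contigs. Their log2 nickel ratio reached -6.62 in root and 9.07 in shoot. The 9.07 came from a contig with no reads in shoot without nickel and depends on the 0.1 CPM added. Root-up/shoot-down contigs reached 3.42 in root and -4.88 in shoot, but the rule bounded their shoot ratio. The 6 contigs left out by that bound were up to 14.5-fold higher in root and 128-fold lower in shoot with nickel. Among the 104 contigs the level in root with nickel ran from 0 to 50.7 CPM with a median of 1.89 CPM. In root without nickel it ran from 0.10 to 107 CPM with a median of 5.47 CPM. In shoot with nickel it ran from 0.102 to 363 CPM with a median of 7.81 CPM, and in shoot without nickel from 0 to 108 CPM with a median of 1.69 CPM. The median log2 nickel ratio was -1.36 in root and 1.79 in shoot, and the shoot ratio was the larger in size for 69 contigs. Here too the wider spread of shoot ratios over all contigs applies. A change of 4-fold or more was reached by 23 contigs in root, by 42 in shoot and by 10 in both organs, while 27 stayed below 3-fold in both. Within each direction the size of the root change was weakly related to that of the shoot change. Across contigs, which are not independent and share the 4 libraries, Spearman's rho of the 2 sizes was 0.295 (n = 138) and 0.0938 (n = 104).

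**Figure D2:**
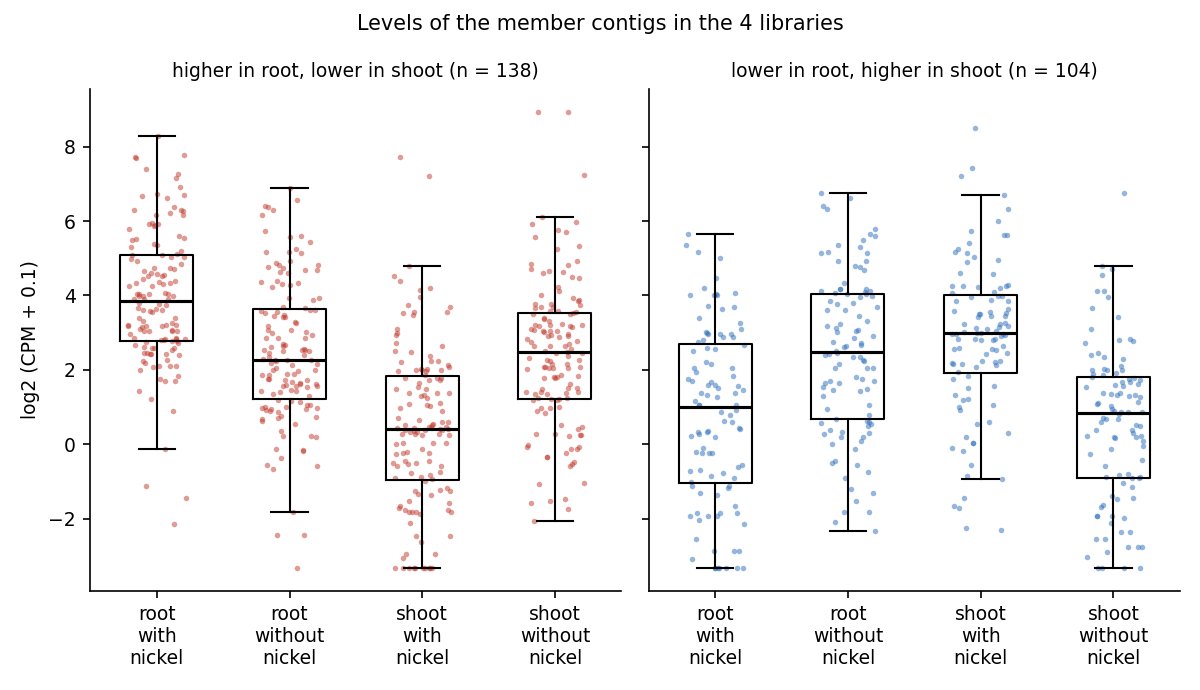
Levels of the members in the 4 libraries as log2 (CPM + 0.1), with the 138 root-up/shoot-down contigs on the left and the 104 root-down/shoot-up contigs on the right. Each point is 1 contig, boxes span the quartiles with the median as a line, and whiskers reach the last point within 1.5 box lengths. On the left root with nickel has the highest median (14.3 CPM) and shoot with nickel the lowest (1.22 CPM). On the right shoot with nickel has the highest median (7.81 CPM) and shoot without nickel the lowest (1.69 CPM).

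The reads behind the ratios were few in 1 library for part of the members. At least 10 reads in every library were counted for 119 of the 138 and for 75 of the 104 contigs, and at least 100 reads in every library for 68 and 22. Among root-up/shoot-down contigs 10 had no reads in shoot with nickel and 1 had none in root without nickel. Among root-down/shoot-up contigs 7 had no reads in root with nickel and 4 had none in shoot without nickel, and 10 contigs in all had a library at 0. The log2 ratios of contigs with a library at 0 depend on the 0.1 CPM added. Members near the limit were separated from others by little. The 2 root-up/shoot-down contigs just inside it had root ratios of 2.0 and 2.001, and of the 2 just outside 1 had a root ratio of 1.997 and the other a shoot ratio of 0.503. Among root-down/shoot-up contigs the 2 just inside had root ratios of 0.4996 and 0.4992, and of the 2 just outside 1 had a root ratio of 0.5015 and the other a shoot ratio of 1.991. The lowest mean CPM inside the rule was 2.04 and 2.07 in the 2 directions, and otherwise fitting contigs were left out at up to 1.97 CPM in both.

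The order of the 4 libraries is given as a description, because the rule fixed the order of nickel and no nickel within each organ. In root-up/shoot-down contigs only root with nickel or shoot without nickel could be highest, and only shoot with nickel or root without nickel lowest. In root-down/shoot-up contigs these pairs were exchanged. For root-up/shoot-down contigs, root with nickel was the highest library in 113 of 138 and shoot with nickel the lowest in 112. The most frequent order, in 70 contigs, was root with nickel, root without nickel, shoot without nickel, shoot with nickel. In 38 others shoot without nickel stood above root without nickel, between the same highest and lowest libraries. For root-down/shoot-up contigs no single library led. Shoot with nickel was highest in 58 and root without nickel in 46, and the lowest was root with nickel in 50 and shoot without nickel in 54. The 2 commonest orders there were opposite in organ. In 32 contigs both shoot libraries stood above both root libraries, and in 30 both root libraries stood above both shoot libraries.

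By the rule, the ratio of root level to shoot level had to change at least 4-fold between the nickel conditions, so a change of organ preference is not itself a finding. A contig was called root-preferring when its root level was at least 2-fold its shoot level, shoot-preferring when the reverse held, and otherwise between. The class without nickel was not fixed, but the rule then limited the class with nickel. Root-up/shoot-down contigs that were root-preferring or between without nickel had to be root-preferring with nickel. Likewise, root-down/shoot-up contigs that were shoot-preferring or between without nickel had to be shoot-preferring with nickel. The counts with nickel are thus partly set by the rule. Of all 24328 contigs, 25.2% were root-preferring and 18.0% shoot-preferring with nickel, and 28.6% and 16.8% without nickel. Of the 138 root-up/shoot-down contigs, 121 were root-preferring, 12 between and 5 shoot-preferring with nickel. Without nickel the same contigs were spread more evenly, at 45 root-preferring, 54 between and 39 shoot-preferring. Of the 104 root-down/shoot-up contigs, 25 were root-preferring, 17 between and 62 shoot-preferring with nickel, whereas without nickel 62 were root-preferring, 20 between and 22 shoot-preferring.

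The median log2 ratio of root to shoot of the 138 contigs was 3.46 with nickel and 0.04 without nickel. That of the 104 contigs was -2.02 with nickel and 1.78 without nickel. Across contigs, the organ ratios with and without nickel correlated with Spearman's rho of 0.851 (n = 138) and 0.878 (n = 104). This is a description over contigs that share the 4 libraries. Within a direction the rule makes all organ ratios shift the same way, so the correlation is partly set by it.

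**Figure D3:**
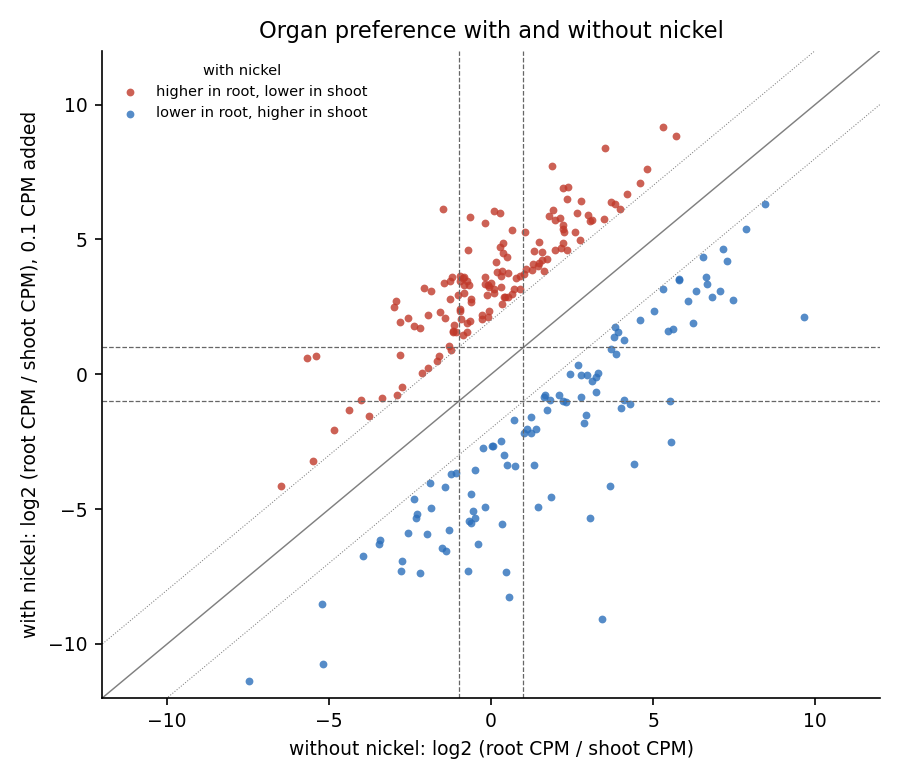
Log2 ratio of root CPM to shoot CPM of the 242 members, with nickel on the y axis and without nickel on the x axis (0.1 CPM added). The solid line marks no change, the dotted lines the 4-fold change that the rule fixes, and the dashed lines the 2-fold limits of organ preference. The 138 red root-up/shoot-down contigs lie above the line and the 104 blue root-down/shoot-up contigs below it. The 22 red contigs at upper left and the 20 blue contigs at lower right reversed their preference.

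The classes of organ preference held contigs of different levels. Among root-up/shoot-down contigs, 45 were root-preferring in both conditions. Their median level was 33.7 CPM with nickel and 10.7 CPM without nickel in root, and 0.326 CPM with nickel and 1.24 CPM without nickel in shoot. The largest class, 54 contigs, was root-preferring with nickel and between without nickel. Its medians were 13.4 CPM with nickel and 4.90 CPM without nickel in root, and 1.23 CPM with nickel and 5.09 CPM without nickel in shoot. A smaller class of 12 was between with nickel and shoot-preferring without nickel, with shoot medians of 4.86 CPM with nickel and 13.3 CPM without nickel. The remaining 5 non-reversing contigs were shoot-preferring in both conditions.

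Among root-down/shoot-up contigs, 25 were root-preferring in both conditions, 22 were shoot-preferring in both, 20 were shoot-preferring with nickel and between without it, and 17 were between with nickel and root-preferring without it. In the 25 root-preferring contigs the median was 7.78 CPM with nickel and 27.0 CPM without nickel in root, and 1.04 CPM with nickel and 0.212 CPM without nickel in shoot. In the 22 shoot-preferring contigs it was 0.180 CPM with nickel and 0.861 CPM without nickel in root, and 15.8 CPM with nickel and 4.63 CPM without nickel in shoot. The root difference of these 22 rested on low levels. The 20 contigs that were between without nickel had medians of 0.539 CPM with nickel and 2.36 CPM without nickel in root, and 11.3 CPM with nickel and 2.96 CPM without nickel in shoot.

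Organ preference reversed in 42 members, 22 that were root-preferring with nickel and shoot-preferring without it, and 20 that were shoot-preferring with nickel and root-preferring without it. Of all 24328 contigs, 135 (0.555%) reversed, 48 (0.197%) to root preference with nickel and 87 (0.358%) to shoot preference with nickel. A reversal needs the organ ratio to change at least 4-fold, which the rule fixed for every member. A raised share of reversals among members is therefore built into their choice and is given as a description. The members were 45.8% of the contigs that reversed to root and 23.0% of those that reversed to shoot. The 22 had medians of 7.42 CPM with nickel and 2.43 CPM without nickel in root, and 1.30 CPM with nickel and 8.44 CPM without nickel in shoot. The 20 had medians of 1.71 CPM with nickel and 5.17 CPM without nickel in root, and 7.34 CPM with nickel and 0.995 CPM without nickel in shoot. The highest mean level among the reversing contigs was 19.9 CPM in the first group and 35.8 CPM in the second.

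The mean of the 2 log2 organ ratios, with and without nickel, is a quantity the rule did not fix, although the members come from the same libraries. It was above 1, a 2-fold average preference for root, in 93 of the 138 root-up/shoot-down contigs (67.4%), against 26.9% of all 24328 contigs. It was below -1 in 13 of the 138 (9.42%), against 16.7%. Root-down/shoot-up contigs lay on both sides, with 40 of 104 (38.5%) above 1 and 46 (44.2%) below -1. Among contigs of mean CPM 10 or more, a limit added after the data were seen, the share above 1 was 76.0% of 50 root-up/shoot-down contigs, against 25.6% of all 13702. Of the 33 root-down/shoot-up contigs, 48.5% lay above 1 and 42.4% below -1, against 15.8% of all 13702 below -1. A contig can meet this limit through its level in a single organ. The limit therefore does not remove contigs with few reads in the other organ. Members had a median absolute mean organ ratio of 2.05 and 2.71 on the log2 scale in the 2 directions, against 0.85 for all 24328 contigs. Contigs that moved alike had similar values, 2.05 for those higher and 2.42 for those lower in both organs, and a strong organ preference is not shown to be particular to opposite movement. A contig with a strong organ preference has fewer reads in the other organ, and the part of low counts in this pattern was not tested.

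The summed CPM of root and shoot follows from the changes that chose the members and is given as a description. With nickel it was within 1.5-fold of that without nickel in 59 of the 138 root-up/shoot-down and 25 of the 104 root-down/shoot-up contigs. It was at least 1.5-fold higher with nickel in 66 and 49 contigs, and at least 1.5-fold lower in 13 and 30.

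The contigs below were named by rule. It ranked members by the smaller of their 2 absolute log2 nickel ratios, by mean CPM, and, for those that reversed, by the smaller of their 2 absolute log2 organ ratios. Among root-up/shoot-down contigs, Lhav_v2_contig_13289 came first by change in both organs. It stood at 6.95 CPM (387 reads) in root with nickel and 0.569 CPM (34 reads) in root without nickel, a ratio of 12.2 (95% exact interval 8.60 to 17.9). In shoot it had no reads with nickel and 1.75 CPM (149 reads) without nickel, 57.4-fold lower with nickel when the library with nickel is set at a floor of 3 reads, with a 95% exact limit of at least 46.1-fold. Lhav_v2_contig_18917 followed, at 7.67 CPM in root with nickel and 1.07 CPM in root without nickel, 7.17-fold higher with nickel (5.50 to 9.47). In shoot it stood at 1.27 CPM with nickel and 9.15 CPM without nickel, 7.18-fold lower with nickel (5.94 to 8.75). Its root level with nickel was thus close to its shoot level without nickel, and its other 2 libraries were close to each other. The next 3 contigs by the same measure had 16.4 to 30.5 CPM in root with nickel, 3.19 to 6.19 CPM in root without nickel, 0.571 to 2.82 CPM in shoot with nickel and 5.33 to 17.2 CPM in shoot without nickel.

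The 2 most abundant contigs of this direction were both higher in shoot than in root in every condition. Lhav_v2_contig_2256 had 71.9 CPM in root with nickel and 35.8 CPM in root without nickel, a ratio of 2.01 (1.90 to 2.12). In shoot it had 210 CPM with nickel and 488 CPM without nickel, 2.32-fold lower with nickel (2.28 to 2.36). Its root ratio lay at the edge of the 2-fold limit. With the other library scalings described below it fell short of that limit. Its log2 root ratio was then 0.86 (TMM), 0.86 (DESeq2 size factors) and 0.95 (upper quartile). Lhav_v2_contig_1933 had 77.7 CPM with nickel and 30.4 CPM without nickel in root, a ratio of 2.55 (2.42 to 2.70), and 149 CPM with nickel and 490 CPM without nickel in shoot, 3.28-fold lower with nickel (3.22 to 3.35). With nickel its root level was within 2-fold of its shoot level. The third most abundant contig was highest in root, at 311 CPM in root with nickel, 119 CPM in root without nickel, 13.3 CPM in shoot with nickel and 40.5 CPM in shoot without nickel. The fourth had 208 CPM in root with nickel, 85.0 CPM in root without nickel, 20.9 CPM in shoot with nickel and 152 CPM in shoot without nickel.

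Lhav_v2_contig_12079 had the largest reversal to root preference. It stood at 9.88 CPM in root with nickel and 2.88 CPM in root without nickel, 3.44-fold higher with nickel (2.89 to 4.10). In shoot it stood at 1.41 CPM with nickel and 22.5 CPM without nickel, 15.97-fold lower with nickel (13.4 to 19.1). Its log2 ratio of root to shoot was 2.73 with nickel and -2.92 without nickel. Lhav_v2_contig_18917 was second by the same measure, at 2.50 with nickel and -2.98 without nickel.

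**Figure D4:**
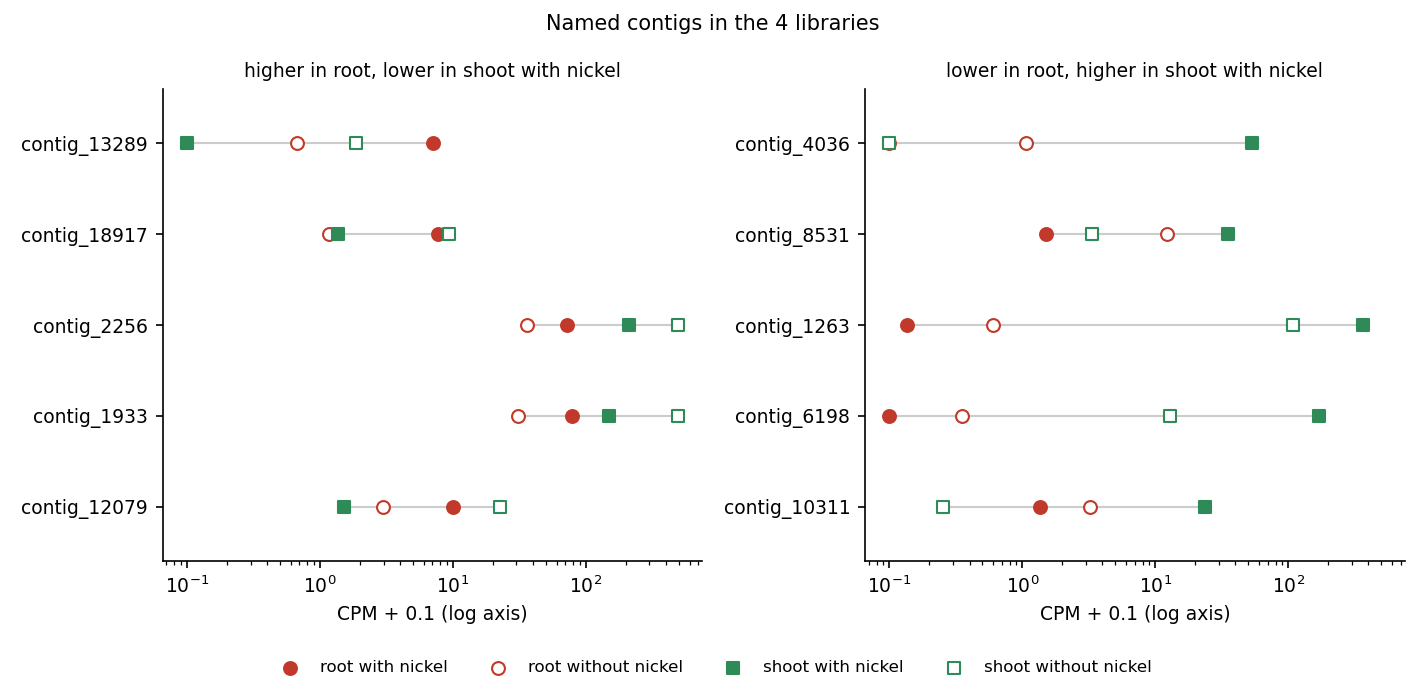
CPM + 0.1 on a log axis for the 10 named contigs, with the root-up/shoot-down contigs on the left and the root-down/shoot-up contigs on the right. Circles are root and squares are shoot, and filled symbols are libraries with nickel. In contig_4036 the open square at the left edge covers a filled circle, since both libraries had no reads. In contig_18917 root with nickel (7.67 CPM) lies beside shoot without nickel (9.15 CPM), and in contig_8531 shoot with nickel (35.2 CPM) and root without nickel (12.1 CPM) lie above the other 2 libraries.

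Among root-down/shoot-up contigs, Lhav_v2_contig_4036 came first by change in both organs, and 2 of its libraries had no reads. In root it had no reads with nickel and 58 reads (0.970 CPM) without nickel, 18.0-fold lower with nickel against the floor of 3 reads and at least 14.2-fold by the 95% exact limit. In shoot it had 5249 reads (53.5 CPM) with nickel and none without nickel, 1514-fold higher with nickel against the floor and at least 1231-fold by the 95% exact limit. Lhav_v2_contig_8531 was counted in all 4 libraries. It stood at 1.40 CPM in root with nickel and 12.1 CPM in root without nickel, 8.60-fold lower with nickel (6.80 to 11.0). In shoot it stood at 35.2 CPM with nickel and 3.24 CPM without nickel, 10.9-fold higher with nickel (9.62 to 12.4). The next 3 contigs had 0 to 0.431 CPM in root with nickel, 1.505 to 7.14 CPM in root without nickel, 5.30 to 42.2 CPM in shoot with nickel and 0.0471 to 5.15 CPM in shoot without nickel.

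The 2 most abundant contigs of this direction had nearly all their reads in shoot, and their root differences rested on few reads. Lhav_v2_contig_1263 had 363 CPM in shoot with nickel and 108 CPM in shoot without nickel, 3.37-fold higher with nickel (3.29 to 3.45). In root it had 2 reads (0.0359 CPM) with nickel and 30 reads (0.502 CPM) without nickel, 13.96-fold lower with nickel (3.54 to 121). Lhav_v2_contig_6198 had 171 CPM in shoot with nickel and 12.7 CPM in shoot without nickel, 13.5-fold higher with nickel (12.7 to 14.4). In root it had no reads with nickel and 15 reads (0.251 CPM) without nickel, 4.65-fold lower with nickel against the floor and at least 3.34-fold by the 95% exact limit. With 0.5 CPM added the log2 root ratios of the 2 contigs were -0.90 and -0.59, short of the limit of the rule.

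Lhav_v2_contig_10311 and Lhav_v2_contig_4036 came first among reversals to shoot preference, in an order that depended on the value added. With 0.1 CPM added the smaller of the 2 log2 organ ratios was 3.67 for Lhav_v2_contig_10311 and 3.42 for Lhav_v2_contig_4036, both without nickel. With no CPM added and libraries at 0 set at 3 reads, the smaller in size was -4.24 (with nickel) for Lhav_v2_contig_10311 and 4.78 (without nickel) for Lhav_v2_contig_4036. Lhav_v2_contig_10311 stood at 1.26 CPM in root with nickel and 3.13 CPM in root without nickel, 2.49-fold lower with nickel (1.88 to 3.32). In shoot it had 2323 reads (23.7 CPM) with nickel and 13 reads (0.153 CPM) without nickel, 155-fold higher with nickel (90.3 to 291). Its log2 ratio of root to shoot was -4.13 with nickel and 3.67 without nickel.

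The counts of members in the 2 directions depended on the value added and on the limits more than on the scaling of libraries. With scaling by TMM, which sets library sizes so that most contigs do not differ, the median log2 nickel ratio of all contigs tested went to -0.12 in root and -0.13 in shoot. The members numbered 122 and 103 in the 2 directions, and 187 of the 242 contigs remained. With DESeq2 size factors they numbered 133 and 93, and 179 remained. The number of members with reversed organ preference did depend on scaling. It was 42 as reported, 56 with TMM and 57 with DESeq2 size factors and with upper-quartile scaling. With 0.5 CPM added it was 34, and with 1 CPM added 26. With 1 CPM added before the ratios the members numbered 77 and 32, and at a 4-fold limit in each organ 8 and 10.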

How the data were processed

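The deposited files give 1 whole-number read count per contig for each of the 4 libraries, without normalization, per the file headers. Per the labels' protocols, RNA was stabilised in RNAlater, extracted with TRIzol LS and made into stranded libraries with an Illumina TruSeq kit. The aligner, the counting program and the assembly of the contigs are not stated in the labels or file headers, nor is the treatment of reads that match several near-identical contigs. From 55.5% to 61.6% of counts from 1 to 20 were even, so both reads of some pairs may have been counted, and intervals are then too narrow.

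CPM was the count divided by the library total. Count ratios carry an exact conditional binomial 95% interval (Clopper-Pearson, scipy 1.17.1). A library at 0 was set at a floor of 3 reads, 0.0306 to 0.0539 CPM. Alternatives used TMM and upper-quartile scaling (edgeR 4.0.16) and DESeq2 1.42.0 size factors. No test was run, since each group had 1 library, and the calculations were tested on simulated data.

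The members, the limits and the rule for named contigs were chosen with earlier results of these data known. In each direction that rule took the 5 contigs with the largest smaller-of-both log2 nickel ratio, the 4 of highest mean CPM and the 3 with the largest reversal of organ preference. Because the identifiers carry no gene name, the first 2 of each are named and the others are summarised. Lists of metal-transport, organ-marker and other genes prepared for named contigs could not be formed.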

Additional observations from a re-analysis of the deposited data

Results flagged for a closer look

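The named contigs were listed because the nickel ratio was above 1 in one organ and below 1 in the other. This difference was not tested, with 1 library per group, and the rule that chose the members fixes it at 2 or more on the log2 scale. Values are the log2 nickel ratio in root minus that in shoot, with 0.1 CPM added.

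Among root-up/shoot-down contigs the difference was 7.61 for Lhav_v2_contig_13289 and 5.65 for Lhav_v2_contig_12079. It was 5.48 for Lhav_v2_contig_18917 and 3.06 for Lhav_v2_contig_1933. The smallest of the 5 was 2.22, for Lhav_v2_contig_2256. Among root-down/shoot-up contigs it was -12.49 for Lhav_v2_contig_4036 and -7.80 for Lhav_v2_contig_10311. It was -6.42 for Lhav_v2_contig_8531, -5.55 for Lhav_v2_contig_6198 and -3.90 for Lhav_v2_contig_1263. The values of Lhav_v2_contig_13289, Lhav_v2_contig_4036 and Lhav_v2_contig_6198 depend on the value added, because at least 1 library had no reads.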

How the results depend on the processing

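Of 72 recalculated counts, 42 stayed within 1.5 times the 242 members, the 138 root-up/shoot-down contigs, the 104 root-down/shoot-up contigs and the 42 with reversed organ preference. The 42 include all counts from filters on the counting intervals of the members and from dropping the bound on the shoot ratio. Those filters can only remove members and kept at least 232 of the 242, and dropping the bound added 6 contigs. The counts that moved further follow in that order. Adding 1 CPM before the ratios gave 109, 77, 32 and 26, and adding 0.5 CPM moved the third count to 58. Without a minimum of mean CPM the counts were 707, 313, 394 and 201. A minimum of 1 moved the fourth to 72, a minimum of 5 gave 144, 85, 59 and 21, and a minimum of 10 gave 83, 50, 33 and 10. A 3-fold limit gave 52, 29, 23 and 20, a 4-fold limit 18, 8, 10 and 10, and an 8-fold limit 4, 1, 3 and 3. Stricter limits and minimums take fewer contigs by construction. The share of root-up/shoot-down contigs, 138 of 242 as reported, was 54.2% to 59.8% under the 3 other scalings. It was 70.6% with 1 CPM added, 44.3% without a minimum and 44.4% at 4-fold. Of 140 recalculated ratios of the 10 named contigs, 82 stayed within the counting interval about the reported value and 58 moved beyond it. In Lhav_v2_contig_13289 and Lhav_v2_contig_4036 the reported ratios with a library at 0 lay outside the exact interval of the counts. For those ratios the split is not a comparison with that interval. No paired analysis was possible because every library carries replicate number 1 and each group has 1 library, and leaving out a library would remove a group. The members cannot be found without the re-analysed shoot library, whose ratio the rule needs. Low counts limit the members with a library at or near 0.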

Other observations

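The root-up/shoot-down contigs had higher numbers in the transcript set than other contigs, a feature the rule did not use. Their median contig number was 25890 with quartiles of 18272 and 37403, against 13550 with quartiles of 6486 and 22232 for all 24328 contigs of mean CPM 2 or more. For the root-down/shoot-up contigs the median number was 15097. Of contigs numbered 30001 to 65936, 2.03% (53 of 2612) were root-up/shoot-down and 0.727% (19) were root-down/shoot-up. Of those numbered 1 to 10000, these shares were 0.185% (17 of 9194) and 0.326% (30). The median of the mean CPM was 3.76 in the highest of these number classes and 33.8 in the lowest, and the median log2 ratio of root to shoot was 1.67 and 0.05. The labels and files do not say what the numbering orders, and the part of level and organ preference in this pattern was not tested. Members with consecutive numbers formed 4 pairs, of which 2 had both contigs in the same direction.

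The 6 contigs that the bound on the shoot ratio left out were 2.31 to 14.5-fold higher with nickel in root and 40.5 to 128-fold lower with nickel in shoot. They had at most 11 reads in shoot with nickel, against 3.94 to 27.1 CPM in shoot without nickel.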
